A study of Homo sapiens with 4 samples.

Results

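The genes of the core Notch pathway were examined for BAF45D occupancy in neural stem cells (NSC) and in the embryonic stem cells (ESC) from which they were derived. The 10 members were taken by name from 19974 protein-coding genes on chromosomes 1 to 22 and X: the receptors NOTCH1, NOTCH2 and NOTCH3, the ligands DLL1 and JAG1, the DNA-binding factor RBPJ, the coactivators MAML1, MAML2 and MAML3, and the inhibitor NUMB. BAF45D, encoded by DPF2, belongs to the BAF complex, which remodels chromatin. It was mapped by CUT&Tag, in which an antibody brings a transposase to the DNA beside its target. For each member, every peak at a gene end (within 1 kb of the annotated start or stop of the gene), inside the gene or within 50 kb of it was listed.

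The NSC group had 2 libraries of spinal cord neural stem cells, NSC1 and NSC2. They came from ESC kept in N2B27 medium with LDN-193189, SB431542, CHIR-99021, FGF2, FGF8 and DAPT, with the ROCK inhibitor Y-27632 at passages. A maintenance medium with SB-431542, CHIR-99021 and Hh-Ag 1.5 followed, and then N2B27 with FGF2 and EGF. The ESC group had 2 libraries, ESC1 and ESC2, of the same line, cultured on Matrigel in mTeSR1. The line is H9, an established human embryonic stem cell line, so all results describe 1 line. The labels do not say whether the libraries of a cell type came from separate cultures, so their spread may be technical.

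In Notch signalling, a ligand of the DLL or JAG family on one cell binds a NOTCH receptor on its neighbour, and the receptor is then cleaved, last by the gamma-secretase complex. The released intracellular part enters the nucleus, joins RBPJ on DNA and recruits a Mastermind-like (MAML) coactivator, which turns on targets such as HES and HEY genes. NUMB antagonises the receptors and can be shared out unequally when a progenitor divides. In the developing spinal cord the pathway is known for keeping progenitors from differentiating. DAPT, listed in the induction medium, inhibits gamma-secretase. Occupancy of a gene by BAF45D is not a measure of its expression or of pathway activity.

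Promoter windows of 300 bases (250 before the start site and 50 from it on) were taken from RefSeq on GRCh38.p14. They were found for 9 of the 10 members, all but DLL1. The windows below are those under the BAF45D peaks shared most widely between libraries, with NOTCH2, whose only site was found in NSC, and NOTCH1, which had no peak at its start, for contrast. They are written 5′ to 3′ along the gene in lower case, and capitals mark the RBPJ core TGGGAA and the GC box GGGCGG on either strand.
RBPJ, chr4:26319496-26319795, plus strand: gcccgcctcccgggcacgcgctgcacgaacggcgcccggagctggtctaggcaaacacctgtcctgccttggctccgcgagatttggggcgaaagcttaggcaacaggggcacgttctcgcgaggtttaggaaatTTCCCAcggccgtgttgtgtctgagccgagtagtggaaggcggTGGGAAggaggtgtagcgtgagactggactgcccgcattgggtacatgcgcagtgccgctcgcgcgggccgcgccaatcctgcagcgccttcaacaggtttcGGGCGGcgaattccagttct
NUMB, chr14:73458497-73458796, minus strand: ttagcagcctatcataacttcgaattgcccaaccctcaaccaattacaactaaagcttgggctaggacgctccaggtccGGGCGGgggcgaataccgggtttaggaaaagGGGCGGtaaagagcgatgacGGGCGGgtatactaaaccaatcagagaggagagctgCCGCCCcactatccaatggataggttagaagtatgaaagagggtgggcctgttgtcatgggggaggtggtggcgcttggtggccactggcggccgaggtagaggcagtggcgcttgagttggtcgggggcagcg
JAG1, chr20:10673950-10674249, minus strand: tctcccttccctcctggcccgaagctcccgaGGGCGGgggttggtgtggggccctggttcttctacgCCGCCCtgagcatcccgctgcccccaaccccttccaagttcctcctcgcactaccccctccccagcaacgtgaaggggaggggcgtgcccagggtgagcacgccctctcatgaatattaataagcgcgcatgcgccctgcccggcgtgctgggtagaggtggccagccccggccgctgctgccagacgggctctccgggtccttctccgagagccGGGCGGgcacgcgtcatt
MAML1, chr5:179732572-179732871, plus strand: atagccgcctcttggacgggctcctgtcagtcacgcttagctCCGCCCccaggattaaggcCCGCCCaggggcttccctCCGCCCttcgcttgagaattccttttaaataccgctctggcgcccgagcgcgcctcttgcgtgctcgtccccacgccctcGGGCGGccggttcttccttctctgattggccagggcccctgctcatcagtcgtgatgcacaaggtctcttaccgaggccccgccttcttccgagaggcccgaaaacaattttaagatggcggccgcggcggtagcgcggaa
NOTCH2, chr1:120069613-120069912, minus strand: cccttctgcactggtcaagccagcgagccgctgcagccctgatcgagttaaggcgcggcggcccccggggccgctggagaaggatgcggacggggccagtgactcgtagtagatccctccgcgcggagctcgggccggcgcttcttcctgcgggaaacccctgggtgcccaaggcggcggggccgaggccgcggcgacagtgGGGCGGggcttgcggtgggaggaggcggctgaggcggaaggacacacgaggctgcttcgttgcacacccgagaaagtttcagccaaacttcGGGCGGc
NOTCH1, chr9:136545999-136546298, minus strand: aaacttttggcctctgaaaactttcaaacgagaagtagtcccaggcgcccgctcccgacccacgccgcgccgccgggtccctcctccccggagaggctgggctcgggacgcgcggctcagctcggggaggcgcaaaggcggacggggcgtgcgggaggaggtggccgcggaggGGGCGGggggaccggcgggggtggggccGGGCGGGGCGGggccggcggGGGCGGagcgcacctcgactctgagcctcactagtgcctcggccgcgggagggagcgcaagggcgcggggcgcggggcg

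The RBPJ window held 2 matches to the RBPJ core, beginning 115 and 72 bases before the start site. It was the only one of the 13 member windows with a match, and 22.7% of 22132 windows of protein-coding genes had one. GC boxes were counted in 11 of the 13 member windows, against 56.3% of all windows. Of the 13, 5 are windows of RBPJ, some of which overlap, so they are not all separate promoters. There were 4 in the bound windows of NUMB and MAML1 each, 3 in that of JAG1 and 2 in that of NOTCH2. The RBPJ window bound in all 4 libraries had only 1, and the windows of NOTCH1 and NOTCH3, which had no peak, had 4 and 5. The other motifs searched, with overlapping matches counted separately, were CCAAT (3 of 13 windows, 34.6% of all), the E-box CANNTG (3, 65.1%), the SOX core ACAAAG (1, 13.6%) and TATAAA (1, 9.46%). NUMB had 3 CCAAT matches, beginning 211, 104 and 72 bases before its start. A match of letters is not a binding site.

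The lists held 29783 and 24669 peaks in NSC1 and NSC2, against 4204 and 12533 in ESC1 and ESC2, from 5566407 and 5377831 tags in NSC1 and NSC2, against 20734829 and 18953543 in ESC1 and ESC2. Peak strength is the authors' −log10 q, computed within 1 library against its own local background. Its size depends on the library, so values of NSC and ESC libraries given side by side are not a comparison of occupancy. The percentile places a peak among those of its own list. Where no peak is listed, the signal fell short of the calling threshold. Libraries made with an untargeted antibody were not analysed here. As a check of the cell type labels, of 6 neural stem cell markers 5 and 5 had a gene-end peak in NSC1 and NSC2, against 1 and 1 in ESC1 and ESC2. Of 6 pluripotency markers 2 and 2 had one in NSC1 and NSC2, against 3 and 4 in ESC1 and ESC2, and POU5F1, NANOG and PAX6 had none in any library. SOX2 is among both sets of markers and had a gene-end peak in all 4 libraries. It was the only neural stem cell marker with one in an ESC library. Of all protein-coding genes, 42.8% and 38.1% had a gene-end peak in NSC1 and NSC2, against 6.67% and 22.8% in ESC1 and ESC2. None of the 3 neural crest and 4 mesoderm and endoderm markers had a gene-end peak in any of the 4 libraries. Of 4 fibroblast markers 1 and 2 had one in NSC1 and NSC2, against 0 and 0 in ESC1 and ESC2. Of 4 neuronal markers 1 and 0 had one in NSC1 and NSC2, against 0 and 1 in ESC1 and ESC2. Some markers without a gene-end peak had one in a promoter window, PAX6 in NSC1 and the neuronal TUBB3 in NSC1 and NSC2.

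At gene ends, BAF45D was called at 6 and 4 of the 10 members in NSC1 and NSC2, against 1 and 3 in ESC1 and ESC2. Among all protein-coding genes the shares were 42.8% and 38.1% in NSC1 and NSC2, against 6.67% and 22.8% in ESC1 and ESC2. The members' counts thus lay near the background in all 4 libraries. The 4 members called in both NSC libraries were NOTCH2, JAG1, MAML1 and NUMB, against 34.5% of all genes. NOTCH2 was the only member with peaks in both NSC libraries and in neither ESC library (a class called NSC-only, 16.2% of all genes). NOTCH2 had no peak in any library when all lists were cut to the 4204 strongest peaks, the length of the shortest list. NUMB was the only member with a gene-end peak in all 4 libraries (5.88%), at either list length. None was ESC-only, the converse class, which held 0.245% of all genes. JAG1 and MAML1 had peaks in NSC1, NSC2 and ESC2, a pattern of 2482 genes, and MAML2 and MAML3 in NSC1 alone, a pattern of 1339 genes. With lists of equal length JAG1 kept gene-end peaks in 3 libraries and MAML1 in 1, NSC2. NOTCH1, NOTCH3, DLL1 and RBPJ had no gene-end peak, as did 51.1% of all genes.

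**Figure D1:**
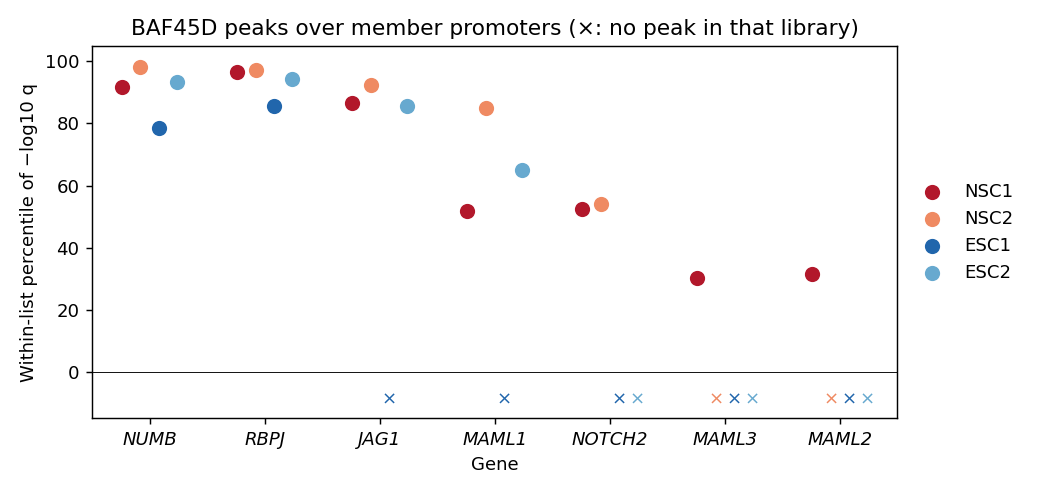
Within-list percentile of the −log10 q of the strongest peak in the region over the promoter of each member that had one, by library (points), with a cross where a library had no peak. NUMB and RBPJ have a point for all 4 libraries, JAG1 and MAML1 lack ESC1, NOTCH2 has the NSC libraries and MAML3 and MAML2 have NSC1 alone.

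The receptors carried few BAF45D peaks. NOTCH2, a paralog of NOTCH1, had 1 peak in NSC1 and 1 in NSC2 within its 158 kb and the 50 kb on either side, against 0 in ESC1 and 0 in ESC2. Both overlapped its start at chr1:120069153-120069747, with −log10 q of 5.57 in NSC1 and 5.54 in NSC2, close to the middle of their lists (percentiles 52.6 and 53.9). Their summits lay 208 and 343 bases into the gene, and the region also touched the promoter window of the long noncoding RNA gene LOC101929178. Human-specific NOTCH2NL genes copy the first part of NOTCH2, so reads there may be hard to place. What this does to the peak was not tested.

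NOTCH1, a main receptor of neural progenitors, had no peak at its ends and 1 weak peak inside the gene, in NSC1 alone (−log10 q 2.89, percentile 16.2). With the flanks, NSC1 and NSC2 had 4 peaks each, against 0 in ESC1 and 0 in ESC2. Strongest was chr9:136483089-136483878, which lay 10.6 kb beyond the 3′ end of NOTCH1 over the start of SEC16A, which serves export from the endoplasmic reticulum, and of C9orf163. It was NSC-only, with −log10 q of 13.9 in NSC1 and 18.3 in NSC2. The other region of both NSC libraries, chr9:136571839-136572640, was centred 26.2 kb before the start of NOTCH1 and overlapped no annotated gene (5.73 in NSC1 and 7.10 in NSC2). A peak of NSC2 alone, chr9:136587233-136587432, lay still farther out (6.68).

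NOTCH3, a receptor best known from vascular smooth muscle, had no peak at its ends or inside the gene in any of the 4 libraries. Its flanks held 2 peaks in NSC1 and 2 in NSC2, against 0 in ESC1 and 2 in ESC2. The strongest region, chr19:15222695-15223960, was centred 22.3 kb before its start, outside annotated genes. It had a −log10 q of 26.0 in NSC1 (percentile 96.5) and 11.7 in NSC2 (83.8), against 4.01 in ESC2 (47.7) and no peak in ESC1. ESC2 alone had a peak 8.29 kb from the other end of NOTCH3 (5.20). The remaining region, at HACL2, was NSC-only (4.18 in NSC1 and 5.88 in NSC2).

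The ligands differed from each other. DLL1, a ligand of neurogenic progenitors, is 8.87 kb long and had no peak at its ends or inside in any of the 4 libraries. Within 50 kb there were 3 and 2 peaks in NSC1 and NSC2, against 1 and 0 in ESC1 and ESC2. Strongest was chr6:170243783-170244524, which was NSC-only and lay 37.7 kb from the gene (8.92 in NSC1 and 7.10 in NSC2). An ESC1 peak lay 17.2 kb from it on the same side (4.59). Of the other NSC1 peaks, the stronger, 17.8 kb away inside the neighbour FAM120B, had a −log10 q of 5.00.

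JAG1, a ligand whose dosage is tied to Alagille syndrome, had 8 peaks in NSC1 and 8 in NSC2, against 0 in ESC1 and 1 in ESC2. Inside its 36.3 kb were 4 and 5 peaks in NSC1 and NSC2, or 11.0 and 13.8 per 100 kb, against 1.50 and 1.24 per 100 kb over all protein-coding gene bodies. The density over all bodies pools genes of every length and is not matched to the length of JAG1. At least as many peaks were inside 5.10% of protein-coding genes in NSC1 and 2.46% in NSC2. With lists of equal length the locus held 3 and 2 peaks in NSC1 and NSC2, against 0 and 1 in ESC1 and ESC2, and the gene itself 1 and 1 in NSC1 and NSC2, against 0 and 1 in ESC1 and ESC2. The single ESC2 peak was at the promoter, chr20:10673934-10674262, where NSC1 and NSC2 also had a peak. It had a −log10 q of 13.7 in NSC1 (percentile 86.5) and 17.4 in NSC2 (92.3), against 11.6 in ESC2 (85.5) and no peak in ESC1. The summits lay 94, 106 and 106 bases before the start in NSC1, NSC2 and ESC2, within 12 bases of each other.

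The strongest region of the JAG1 locus was away from the promoter. It lay 7.09 kb beyond the 3′ end of JAG1, at chr20:10629546-10630593, between JAG1 and SLX4IP and outside both. The −log10 q was 25.2 in NSC1 (percentile 96.2) and 32.0 in NSC2 (98.4), with no ESC peak, which placed it 174th of 13646 NSC-only regions of the genome by mean percentile. A further NSC-only region, chr20:10619396-10619827, lay inside SLX4IP, a gene of telomere maintenance (24.8 in NSC1 and 9.14 in NSC2). Inside JAG1, 3 NSC-only regions were centred 2.24, 18.1 and 23.9 kb from the start.

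RBPJ, the DNA-binding factor of the pathway, had 4 peaks in NSC1 and 6 in NSC2, against 2 in ESC1 and 2 in ESC2. It is annotated at chr4:26105449-26435131, and neither end had a peak. The strongest region, chr4:26319459-26321096, was found in all 4 libraries. It lay 215 kb into the gene and overlapped 3 of its 5 RefSeq promoter windows. The −log10 q was 26.2 in NSC1 (percentile 96.6) and 27.1 in NSC2 (97.4), against 10.3 in ESC1 (85.8) and 21.1 in ESC2 (94.4). All 4 libraries had a summit inside the window printed above, 74 and 53 bases before the start site at 26319746 in NSC1 and NSC2, against 83 and 57 in ESC1 and ESC2. These 4 summits spanned 30 bases. The RBPJ core that begins 72 bases before that site lies among them.

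A second summit in the RBPJ region lay 913 bases beyond that start site in NSC1 (−log10 q 26.1), and NSC2 and ESC2 had one near it (24.4 in NSC2, against 17.4 in ESC2). The rest of the RBPJ locus held weaker peaks. The next were a peak of NSC2 alone at chr4:26244216-26244485 (9.49) and a peak of NSC1 alone at chr4:26208269-26208503 (5.23). The only NSC-only region, chr4:26171850-26172357, was weak in both lists (3.62 in NSC1 and 3.41 in NSC2). When promoter windows were used in place of gene ends, a choice made after the data were seen, RBPJ joined NUMB as a member bound in all 4 libraries, against 5.51% of genes with a window. Both NSC libraries then had a peak at 5 of the 9 members with a window, against 33.5% of such genes.

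NUMB, the antagonist of the receptors, had 3 peaks in NSC1 and 1 in NSC2, against 2 in ESC1 and 2 in ESC2. Its promoter region, chr14:73458277-73458971, was bound in all 4 libraries. It had a −log10 q of 18.1 in NSC1 (percentile 91.9) and 31.1 in NSC2 (98.2), against 7.45 in ESC1 (78.7) and 19.2 in ESC2 (93.5). The summits lay 90 and 101 bases before the start in NSC1 and NSC2, against 153 and 107 in ESC1 and ESC2. The other NUMB peaks were found in single libraries or in unlike pairs. NSC1 and ESC2 had a peak at chr14:73490769-73491102, over ends of ACOT1 and RIOX1 (5.35 in NSC1, against 8.16 in ESC2), and ESC1 had one inside NUMB (4.01).

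**Figure D2:**
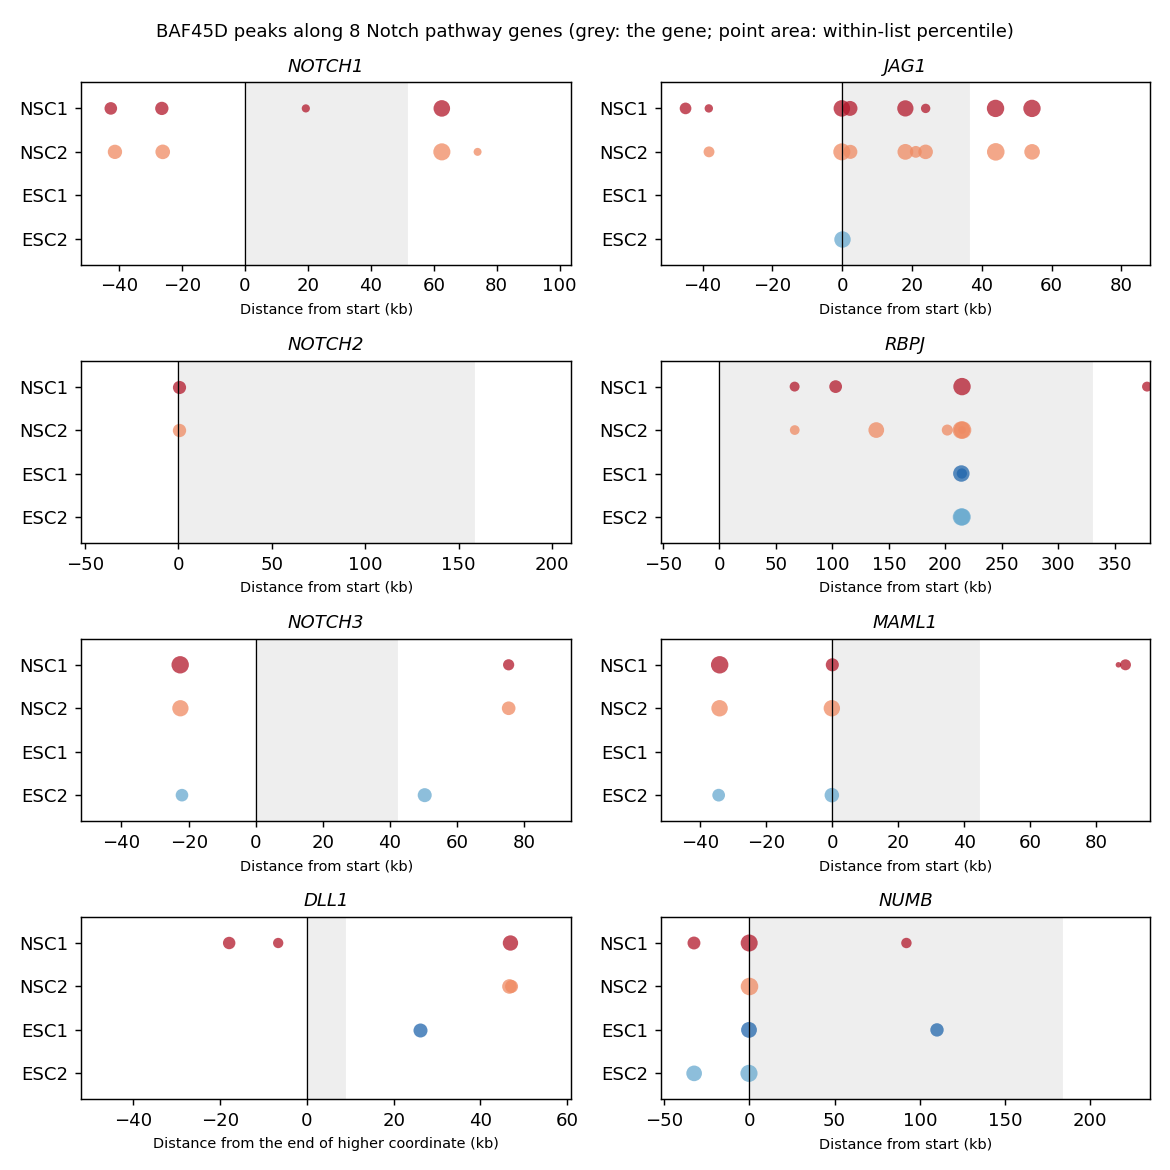
Positions of BAF45D peaks of NSC1, NSC2, ESC1 and ESC2 (rows) along 8 Notch pathway genes, in kb from the start of the gene in the direction of transcription (for DLL1, from its end of higher coordinate), with the gene in grey. Point area follows the within-list percentile of −log10 q. NUMB, RBPJ, JAG1 and MAML1 each have ESC points that stand with NSC points over a promoter, and NUMB has further ESC points away from promoters. NOTCH3 and DLL1 have no point inside the gene.

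The 3 MAML coactivators were unlike each other in BAF45D occupancy. MAML1 is 44.5 kb long and had 4 peaks in NSC1 and 2 in NSC2, against 0 in ESC1 and 2 in ESC2. Its promoter region, chr5:179732522-179733154, had a −log10 q of 5.51 in NSC1 (percentile 51.7) and 12.3 in NSC2 (85.1), against 5.79 in ESC2 (65.1) and no peak in ESC1. Its summits lay 154, 136 and 91 bases before the start in NSC1, NSC2 and ESC2. The strongest region of the locus, chr5:179698268-179699155, was over a promoter of CANX, which encodes the chaperone calnexin (27.9 in NSC1 and 12.4 in NSC2, against 4.08 in ESC2). A weaker peak of NSC1 alone, chr5:179821596-179821806, lay in SQSTM1 (4.08).

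MAML2, known from gene fusions in mucoepidermoid carcinoma, held the most peaks. Inside its 367 kb there were 27 peaks in NSC1 and 19 in NSC2, against 0 in ESC1 and 0 in ESC2. This came to 7.37 and 5.18 per 100 kb in NSC1 and NSC2. The flanks of 50 kb on either side held 1 peak in each of NSC1, NSC2 and ESC2, and it was the same region. That region, chr11:96389330-96390325, covers the neighbouring starts of CCDC82 and JRKL (28.4 in NSC1 and 18.2 in NSC2, against 10.5 in ESC2). By number of peaks inside the gene, 5 of 19974 protein-coding genes had at least as many as MAML2 in NSC1 and 8 in NSC2, with MAML2 counted. By peaks per length among the 771 genes of at least 300 kb, MAML2 ranked first in NSC1 and second in NSC2. Over those genes the median was 0.971 per 100 kb in NSC1 and 0.763 in NSC2, against 0 in ESC1 and 0.224 in ESC2.

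The MAML2 peaks formed 28 regions, of which 17 were NSC-only, 9 were in NSC1 alone and 2 in NSC2 alone. The NSC-only regions were spread over 324 kb, chr11:96012101-96335686. The strongest, chr11:96306896-96308056, was centred 35.7 kb into the gene from its start. It had a −log10 q of 34.0 in NSC1 (percentile 98.3) and 33.6 in NSC2 (98.6) and ranked 86th of the 13646 NSC-only regions. Next inside the gene was chr11:96095844-96096332 (11.6 in NSC1 and 7.33 in NSC2), 247 kb from the start. Most of the others were weak: 19 of 27 peaks in NSC1 and 13 of 19 in NSC2 lay below the median of their list. At the start of MAML2, NSC1 alone had a peak (chr11:96343039-96343238, 3.89). At a −log10 q of at least 5 the gene held 9 and 7 peaks in NSC1 and NSC2, against 0 and 0 in ESC1 and ESC2, and when all lists were cut to the 4204 strongest peaks it held 1 and 1 in NSC1 and NSC2, against 0 and 0 in ESC1 and ESC2.

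MAML3, the longest member at 437 kb, had 12 peaks in NSC1 and 10 in NSC2, against 0 in ESC1 and 4 in ESC2, all inside the gene. Per 100 kb this was 2.74 and 2.29 in NSC1 and NSC2, against 0 and 0.914 in ESC1 and ESC2. Of the genes of at least 300 kb, 5.32% had at least that density in NSC1 and 5.58% in NSC2. Its 16 regions included 7 that were NSC-only. The strongest, chr4:139815927-139816700, was 338 kb from the start (12.9 in NSC1 and 10.4 in NSC2). The next were chr4:139734883-139735330, where MAML3 and MGST2 overlap (11.5 in NSC1 and 7.49 in NSC2), and chr4:139808542-139809527 (12.5 in NSC1 and 6.46 in NSC2).

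Near the start of MAML3, a region centred 2.66 kb into the gene, chr4:140150843-140152207, had peaks in NSC1 (10.8), NSC2 (4.90) and ESC2 (2.79). At the start itself NSC1 alone had a peak (chr4:140154067-140154369, 3.83). The other 3 ESC2 peaks matched no NSC peak and had −log10 q of 4.71, 3.53 and 1.36. With all lists cut to equal length, no MAML3 peak was left in any of the 4 libraries.

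**Figure D3:**
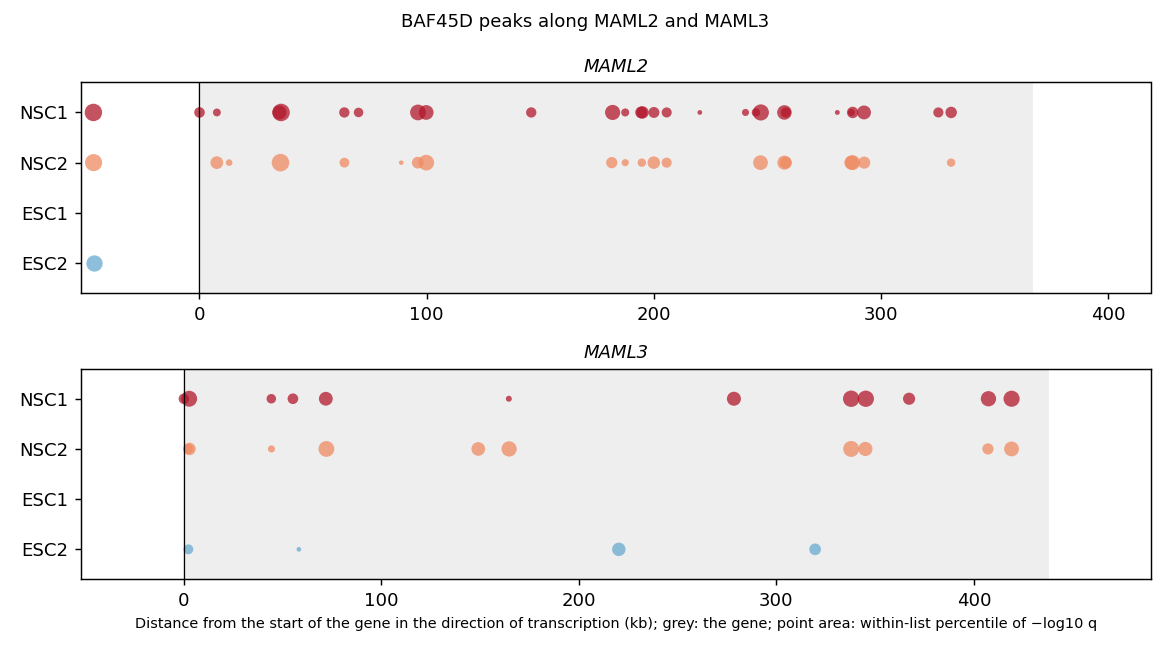
Positions of BAF45D peaks of NSC1, NSC2, ESC1 and ESC2 (rows) along MAML2 (top) and MAML3 (bottom), in kb from the start of the gene in the direction of transcription, with the gene in grey and point area following the within-list percentile. MAML2 has 27 and 19 points inside the gene in NSC1 and NSC2, against none in ESC1 and ESC2, whose only point lies in the flank.

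**Figure D4:**
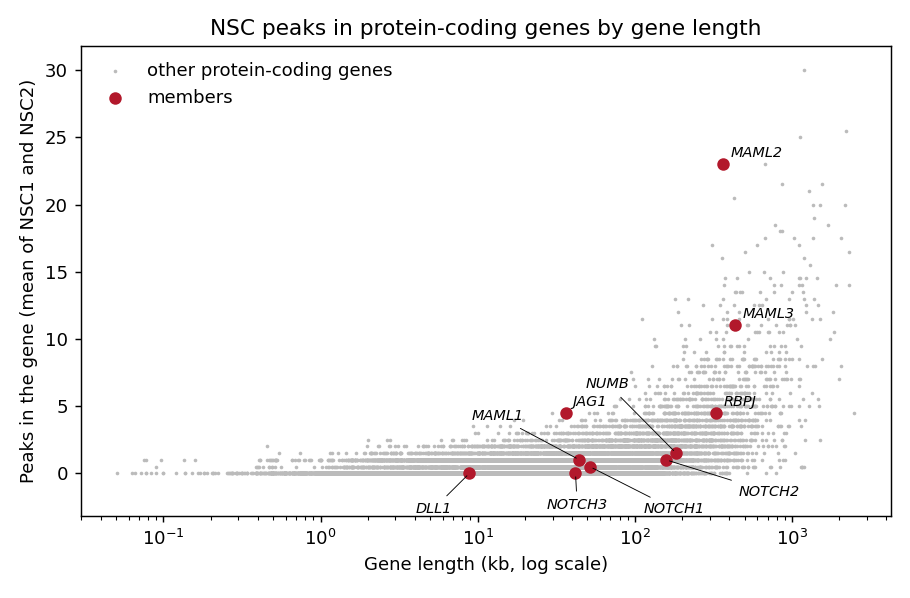
Number of peaks inside each protein-coding gene (mean of NSC1 and NSC2) against gene length in kb on a log scale, with the 10 members in red. MAML2 stands at the upper edge of the genes of its length, MAML3 below it, and DLL1 and NOTCH3 at 0.

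Over the 10 loci, each a gene with 50 kb on either side, there were 69 and 56 peaks in NSC1 and NSC2, against 5 and 14 in ESC1 and ESC2. NSC libraries averaged 62.5 ± 9.19 and ESC libraries 9.50 ± 6.36 peaks (SD, n = 2 each). The ratio of these means was 6.58, while over all peaks of the lists it was 3.25. The groups did not overlap, but an exact two-sided permutation test of 2 against 2 libraries gave p = 0.333, the smallest it can give. MAML2 supplied 40.6% and 35.7% of the peaks in NSC1 and NSC2, against 0% and 7.14% in ESC1 and ESC2. Without its locus the ratio was 4.28, and with lists of equal length it was 1.91. It was 4.46 without ESC1 and 12.5 without ESC2. The 3.25 over all peaks refers to the full lists of all libraries. It is no reference where a library is left out, and lists of equal length hold as many peaks in NSC as in ESC. Nor is it matched to long genes, in which most member peaks lay. Over all protein-coding gene bodies there were 1.50 and 1.24 peaks per 100 kb in NSC1 and NSC2, against 0.154 and 0.557 in ESC1 and ESC2. Whether the ratio of 6.58 exceeds that of genes of like length was not tested. Every member had a peak in the locus in both NSC libraries, against 75.6% of protein-coding genes, and 8 of 10 had one in at least 1 ESC library, against 68.3%. NOTCH1 and NOTCH2 were the exceptions. Both shares were taken over genes of every length and were not matched to the member loci, the longest of which spans 537 kb (MAML3).

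**Figure D5:**
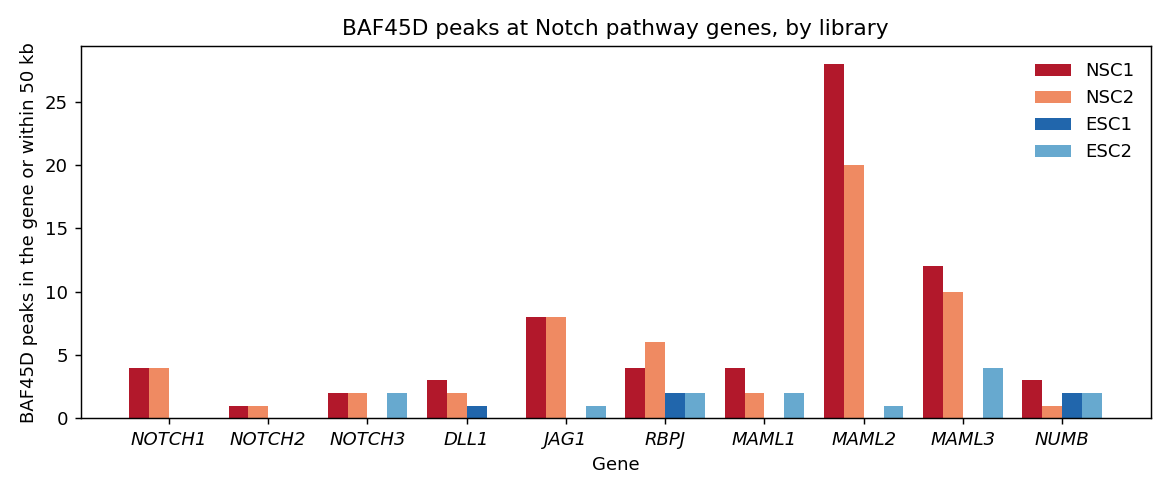
Number of BAF45D peaks in each gene or within 50 kb of it (bars) in NSC1, NSC2, ESC1 and ESC2. MAML2 reaches 28 and 20 peaks in NSC1 and NSC2, against 0 and 1 in ESC1 and ESC2, while no other member exceeds 12 in any library.

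Merging overlapping peaks of the 4 libraries gave 82 regions in these loci. Of these, 36 were NSC-only (43.9%, against 30.6% of 44534 regions in the genome), 2 were in all 4 libraries (2.44%, against 3.27%) and 0 were ESC-only (against 1.65%). MAML2 held 17 of the 36 NSC-only regions among the 29 regions of its locus, MAML3 7 among 16 and JAG1 6 among 9. MAML1 and NUMB had 0 among 4 each. The share of 43.9% thus leans on MAML2 and does not describe every member. Another 37 regions were seen in a single library, 23 of them in NSC1. Most regions lay inside a gene away from its ends (54), with 6 at gene ends and 22 outside. Both NSC libraries had a peak in 44 regions, of which 8 also had an ESC peak (18.2%, against 23.3% of such regions in the genome). Those 8 were at the promoters of RBPJ, NUMB, JAG1 and MAML1, at the neighbouring promoters of CANX and of CCDC82 with JRKL, before NOTCH3 and near the start of MAML3. A RefSeq promoter window was overlapped by 6 of these 8, against 66.3% of such regions in the genome. It was overlapped by 3 of the 36 NSC-only regions (8.33%), at NOTCH2, SEC16A and HACL2, against 20.3% of NSC-only regions in the genome. Both shares in the genome were taken over chromosomes with promoter windows.

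The wider pathway was read from 48 further genes at their ends. Of these, 12 were NSC-only (25.0%, against 16.2% of all protein-coding genes), 2 had peaks in all 4 libraries (4.17%, against 5.88%) and 0 were ESC-only. Gene-end peaks were called at 23 and 21 of them in NSC1 and NSC2, against 2 and 10 in ESC1 and ESC2. At the shares of all protein-coding genes given above (42.8% and 38.1% in NSC1 and NSC2, against 6.67% and 22.8% in ESC1 and ESC2), these counts lay near the background. The strongest NSC-only genes were ADAM17, a protease that can cleave NOTCH at the cell surface (11.5 in NSC1 and 12.5 in NSC2), the target HEY1, a transcriptional repressor (12.6 in NSC1 and 10.9 in NSC2), its relative HEY2 (9.51 in NSC1 and 7.52 in NSC2) and NUMBL, the paralog of NUMB (4.50 in NSC1 and 5.60 in NSC2). ADAM17, HEY2 and NUMBL also had a peak in a promoter window in both NSC libraries. For HEY1 none was counted in a window, which a gene without a RefSeq window would also give.

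By role, 3 of 7 targets, 4 of 11 ubiquitin ligases and trafficking genes, 3 of 11 nuclear cofactors and 2 of 9 processing genes were NSC-only, as were 0 of 5 further ligands and receptors and 0 of 5 glycosylation genes. Against 16.2% of all protein-coding genes, these groups are too small to tell the roles apart. HES1, the best-known target in neural progenitors, had peaks in NSC1 (15.5), NSC2 (20.0) and ESC2 (6.00). The 2 genes called in all 4 libraries were NOTCH4, a receptor of endothelial cells (46.3 in NSC1 and 26.6 in NSC2, against 2.60 in ESC1 and 12.2 in ESC2), and PSENEN, a subunit of gamma-secretase (19.0 in NSC1 and 16.3 in NSC2, against 3.88 in ESC1 and 19.4 in ESC2). In neither case were peaks of all 4 libraries counted in a promoter window. None was counted in a window of NOTCH4, which a gene without a RefSeq window would also give. At PSENEN only NSC1 and NSC2 had a peak in the window.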

How the data were processed

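BAF45D CUT&Tag was analysed in 2 NSC and 2 ESC libraries, grouped by their titles. The submitters' processing notes name FastQC, Trimmomatic, BWA 0.7.12 and the build hg38. The authors called peaks per library with MACS2 2.1.0.20150420 at a q threshold of 0.05 without a control, on an input whose name holds uni and dedup, per the file headers. The deposited lists give every peak its summit pileup (a signal value), −log10 p and −log10 q values, and the fold enrichment (a ratio to the local background), all within 1 library.

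With Python 3.11.15 and pandas 2.3.3, entries of the same start and end were joined at their highest −log10 q, and peaks overlapping by at least 1 bp were merged into regions. Gene spans came from RefSeq GRCh38.p14, and the functions were tested on simulated data. The tags of each library are given with the results. A peak list has no counts away from peaks, so no interval or floor was derived, and the smallest p that exact permutation of the 4 libraries allows is 0.333. All members were named, with every gene-end peak and the 3 regions of highest mean percentile per locus, and up to 4 further pathway genes per class. HES1 and some further regions were named outside this rule, after their values were seen. The members and lists were chosen with earlier results of these data known.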

Additional observations from a re-analysis of the deposited data

How the results depend on the processing

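The labels do not say that a replicate number pairs NSC and ESC libraries, and the deviations of same-numbered libraries from their group means correlated at -0.0851 over protein-coding loci. With the number as a replicate block, added after the data were seen, the ratio of peaks in the loci was 13.8 for NSC1 over ESC1 and 4.00 for NSC2 over ESC2, with a geometric mean of 7.43 (exact two-sided sign-flip p = 0.5, the smallest that 2 pairs allow). Calls of peaks carry no model into which a block could enter. Judged on the libraries left when each was left out in turn, the NSC-only members at gene ends numbered 1 to 3, those bound in all libraries 1 to 3, and the ESC-only members 0 in each case. JAG1 and MAML1 became NSC-only without ESC2 and bound in all libraries without ESC1, and MAML2 and MAML3 became NSC-only without NSC2. MAML2 and MAML3 had no gene-end peak without NSC1, at a −log10 q of at least 5 or with lists of equal length. In the loci, NSC-only regions numbered 36 to 60, regions of all libraries 2 to 8 and ESC-only regions 0 to 4, and the ratio of mean peaks in NSC over ESC ranged from 4.46 to 12.5. The ratio over all peaks of the lists also changes with the libraries kept or paired, and is not given for these settings. At a −log10 q of at least 5, NSC-only regions numbered 18. With lists of equal length they numbered 5, and no member was NSC-only at its ends (0), as NOTCH2 lost both peaks. With promoter windows in place of gene ends, chosen after the data were seen, 2 members were bound in all 4 libraries. The cause of these differences was not tested. Gene-end windows of 2.5 kb, gene starts alone, loci of 10 kb and a stricter overlap, set against the shorter peak, left the counts of members and regions in each class, and the ratio where it applies, within 1.5 times their values. Of single members, MAML3 had a gene-end peak in 3 libraries with the window of 2.5 kb, against 1 with that of 1 kb.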

Other observations

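The call at gene ends and the call at promoters gave unlike answers for RBPJ, whose 5 RefSeq promoter windows all lie inside its annotated span. Across the genome, 872 of 15812 protein-coding genes with a RefSeq promoter window had a peak there in all 4 libraries. Of these, 84 were not called in all 4 libraries by their gene ends, and 45 had no gene-end peak in any of the 4 libraries.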
